A study of Rattus norvegicus with 11 samples.

Results

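The metallothioneins Mt2A and Mt3, the metal-responsive transcription factor Mtf1, the zinc exporter Slc30a1 and the zinc importers Slc39a8 and Slc39a14 were followed through the striatum of rats with intracerebral hemorrhage (ICH), a bleed inside the brain. All 6 genes, taken by name, have known roles in zinc handling, and they are 6 of the 30560 genes in the deposited table. All 6 passed the filter on low counts that left 15742 genes for testing.

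RNA was taken at day 3 from the striatum of 11 male Sprague-Dawley rats, with 1 poly(A) RNA-seq library per rat. Common ICH (IC, n = 3) was produced by injecting 0.2 U of bacterial collagenase VII-S in 1 µL into the striatum, and severe ICH (IS, n = 3) by 0.6 U in 3 µL. Severe ICH with hematoma aspiration (IS-HA, n = 3) received the IS dose, and 150 µL of hematoma was drawn off at 6 h. Normal rats (n = 2) had no injection, so the needle, the collagenase and the blood cannot be told apart in any comparison with them, and the collagenase dose and volume differ together between IC and IS. The comparisons ask how the zinc-handling genes stood after each injury, whether they differed with its severity, and whether they differed once the hematoma had been aspirated. Values are in TPM, a level scaled for gene length and library, and log2 fold changes come from the counts by edgeR's quasi-likelihood test, with p-values adjusted by Benjamini-Hochberg over the 15742 genes. A gene is called when this adjusted p is under 0.05, and "SE" is the standard error of the log2 fold change.

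Metallothioneins are small cysteine-rich proteins that bind zinc and copper and buffer their free levels in the cell. MTF1 senses free zinc and activates metallothionein genes and Slc30a1 through metal response elements in their promoters, and metallothionein genes are also induced by glucocorticoids and inflammatory cytokines. In the brain Mt1 and Mt2A are best known from astrocytes and rise in many injuries, whereas Mt3 is a largely brain-restricted form. SLC30 proteins move zinc out of the cytoplasm and SLC39 proteins move it in, so the families work in opposite directions.

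The promoters of Mt2A, Mt3 and Slc30a1, and of Mt1, the neighbour of Mt2A that is described with it below, are shown because Mt1, Mt2A and Slc30a1 are textbook targets of MTF1 and because the 4 genes did not move alike here. The sequences are RefSeq's for the GRCr8 build, whereas the counts were made on mRatBN7.2. Each runs 5′ to 3′ on the gene's own strand from 250 bases before the start site to 50 after it, and capitals mark the metal response element core, searched as TGCACNC or TGCGCNC on both strands. The windows are chr19:10838659-10838958 (reverse strand) for Mt2A, chr19:10832926-10833225 (reverse) for Mt1, chr19:10856031-10856330 (reverse) for Mt3 and chr13:106021769-106022068 (forward) for Slc30a1.
Mt2A: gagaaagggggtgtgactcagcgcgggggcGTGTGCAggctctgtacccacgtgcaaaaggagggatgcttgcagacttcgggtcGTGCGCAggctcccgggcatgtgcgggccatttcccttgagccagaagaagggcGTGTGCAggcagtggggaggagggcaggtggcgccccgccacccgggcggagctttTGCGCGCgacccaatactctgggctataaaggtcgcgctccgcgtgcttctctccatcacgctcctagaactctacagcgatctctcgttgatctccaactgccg
Mt1: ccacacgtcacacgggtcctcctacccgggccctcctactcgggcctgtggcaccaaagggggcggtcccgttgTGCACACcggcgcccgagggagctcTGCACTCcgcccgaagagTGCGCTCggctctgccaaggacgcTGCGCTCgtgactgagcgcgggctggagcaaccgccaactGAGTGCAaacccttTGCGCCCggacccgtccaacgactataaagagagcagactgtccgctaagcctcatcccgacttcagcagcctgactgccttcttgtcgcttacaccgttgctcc
Mt3: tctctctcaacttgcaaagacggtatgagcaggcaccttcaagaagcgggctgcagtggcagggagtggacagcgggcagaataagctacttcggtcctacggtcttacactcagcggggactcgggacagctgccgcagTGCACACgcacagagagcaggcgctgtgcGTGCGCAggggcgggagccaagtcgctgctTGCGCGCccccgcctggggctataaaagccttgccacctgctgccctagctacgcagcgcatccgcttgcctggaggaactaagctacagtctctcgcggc
Slc30a1: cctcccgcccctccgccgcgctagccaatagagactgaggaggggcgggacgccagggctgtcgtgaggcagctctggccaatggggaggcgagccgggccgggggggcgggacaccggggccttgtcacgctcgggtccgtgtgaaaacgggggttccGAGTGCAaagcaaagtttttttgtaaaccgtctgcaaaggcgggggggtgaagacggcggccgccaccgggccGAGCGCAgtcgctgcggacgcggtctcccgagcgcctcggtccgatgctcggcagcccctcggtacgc

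The core was found 4 times in the Mt2A window, 6 times in that of Mt1, 3 times in that of Mt3 and 2 times in that of Slc30a1. Among 33469 rat promoter windows of the same 300 bases, 24.2% held at least 1 core, 6.36% at least 2, 1.68% at least 3, 0.439% at least 4 and 0.0388% at least 6. The window of Mtf1 itself (chr5:142346804-142347103, forward) held 2 cores, and the window that the table gives for Slc39a8 (chr2:226929941-226930240, forward) held none of these letters. The Slc39a8 window surrounds a start site inside the annotated gene and not at its outer end, and which start this tissue uses was not tested. The cores of 2 other elements were searched on both strands, the antioxidant response element as TGACNNNGC and the STAT site as TTCNNNGAA, and none of their matches in these 6 windows overlapped a metal response core. The antioxidant core stood 1 time in each of the windows of Mt2A, Mt1, Slc30a1 and Slc39a8 and 2 times in that of Mtf1, against 12.1% of all windows with at least 1. The STAT core stood only in the Slc39a8 window, as TTCCCCGAA at 195 to 187 bases before that internal start, and 8.87% of all windows held it. Slc39a14 was matched to no window in the table. These are matches of letters, and binding was not measured.

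The libraries held 6701301 to 18817645 counts assigned to genes, at which 3 counts correspond to 0.159 to 0.448 CPM (counts scaled to library size). The smallest library, IS-HA replicate 2, stood apart from its group: the lowest correlation of log2 CPM across genes between rats of a group was 0.908 in IS-HA and 0.951 to 0.983 in the other groups, so member results that it decides or moves by over 1.5 times are also given without it. The striatal neuron genes Drd1, Drd2 and Ppp1r1b were present in every rat, at 244, 214 and 2190 TPM on average in Normal. Summed marker levels moved with the injury. The 8 microglia and macrophage markers summed to 289 to 374 TPM in Normal, 1510 to 2080 in IC, 2180 to 3690 in IS and 1880 to 2720 in IS-HA, and 8, 7 and 8 of the 8 rose in IC, IS and IS-HA. The 6 neutrophil markers summed to 4.91 to 5.11 TPM in Normal, 83.3 to 267 in IC, 494 to 696 in IS and 168, 858 and 215 in IS-HA replicates 1, 2 and 3. All 5 of them that could be tested rose in each injury. Mpo, which could not be tested, was at 0 in every Normal, IC and IS rat. In the injured groups the neutrophil sum is mostly S100a8 and S100a9, which reached 542 and 277 TPM in IS-HA, where Csf3r, Cxcr2 and Mmp8 did not exceed 31.1, 1.84 and 9.23 TPM. The 6 astrocyte markers summed to 1080 to 1390, 4430 to 6950, 2880 to 4740 and 3620 to 4880 TPM in the same order, with Gfap higher and Slc1a2 lower in each injury and the other 4 not called. The 8 neuron markers summed to 4650 to 5230, 1850 to 3280, 860 to 2150 and 1220 to 2560 TPM, and 1, 8 and 5 of them fell in IC, IS and IS-HA. The sum of the 5 oligodendrocyte markers was 15500 to 15800, 8860 to 12900, 5120 to 8920 and 7790 to 12500 TPM, and 0, 5 and 1 fell. The 5 endothelial markers summed to 102 to 144, 169 to 181, 160 to 192 and 157 to 208 TPM, with Pecam1 called higher in IS and Flt1 lower in IS and IS-HA, and the 3 erythroid markers in the table, of 7 listed, to 54.2 to 57.7, 38.9 to 164, 24.8 to 38.8 and 15.6 to 32.1 TPM with 0 called. These counts of markers stand beside 13.0, 24.8 and 19.5% of all genes called higher, and 4.64, 24.2 and 12.1% called lower, in IC, IS and IS-HA against Normal. The part of these shifts in the results below was not tested, and in bulk tissue fewer cells of a type and less RNA per cell cannot be told apart.

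**Figure D1:**
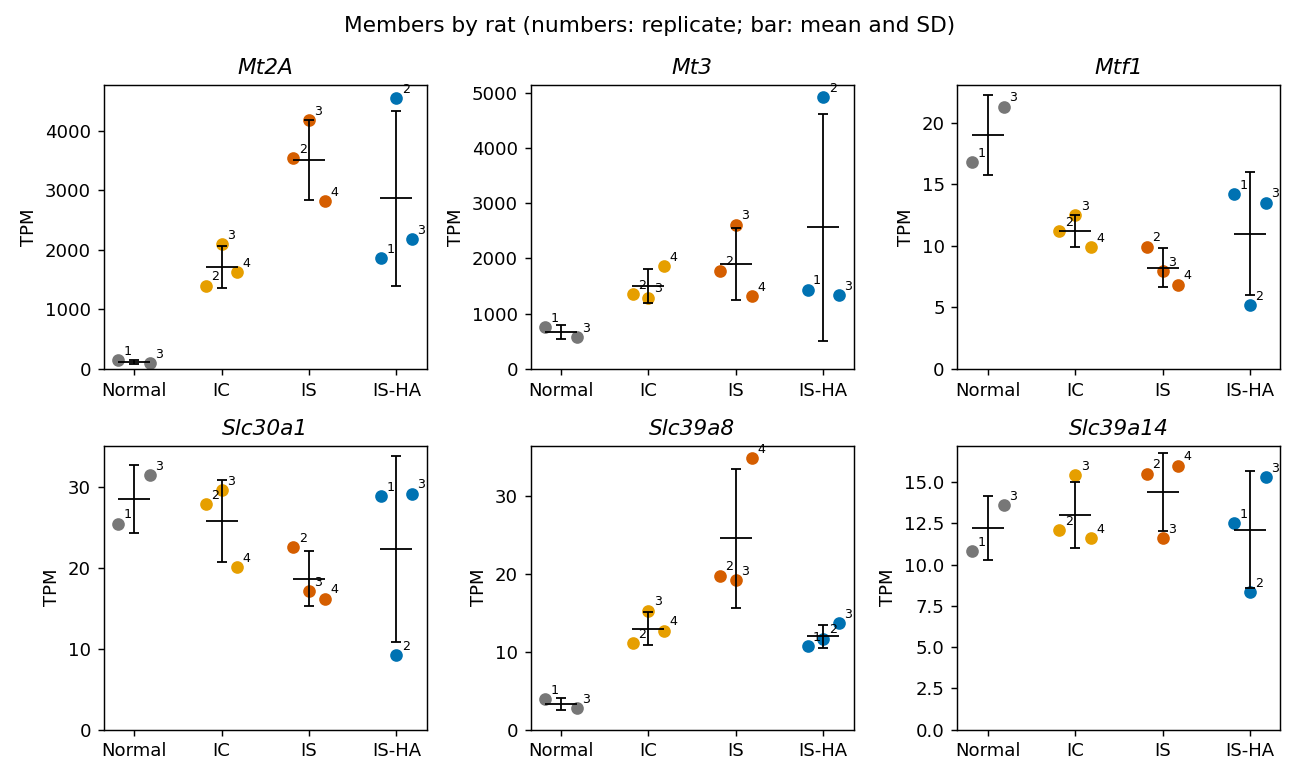
Level of each of the 6 genes in TPM (vertical axis, linear, from 0) in every rat of the 4 groups, with small numbers giving the replicate and the line and bar giving the mean and SD. Mt2A, Mt3 and Slc39a8 are higher and Mtf1 is lower in all injured rats than in Normal, whereas Slc39a14 overlaps in all groups, and IS-HA replicate 2 is the highest rat for Mt2A (4550) and Mt3 (4920) and the lowest for Mtf1, Slc30a1 and Slc39a14.

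Mt2A (ENSRNOG00000043098), the inducible metallothionein, rose in all 3 injuries. Its level was 143 and 97.6 TPM in Normal replicates 1 and 3, and 1400, 2100 and 1630 TPM in IC replicates 2, 3 and 4. In IS replicates 2, 3 and 4 it was 3540, 4180 and 2820 TPM, and in IS-HA replicates 1, 2 and 3 it was 1860, 4550 and 2180 TPM. Every injured rat lay far above both Normal rats, every IS rat lay above every IC rat, and the IS-HA rats overlapped both IC and IS. The group means were 121 ± 32.4 (SD, n = 2) in Normal, 1710 ± 354 (n = 3) in IC, 3510 ± 676 (n = 3) in IS and 2870 ± 1470 (n = 3) in IS-HA. The fitted increase over Normal was 13.5-fold in IC (log2 3.76, SE 0.52, adjusted p = 0.000785 by edgeR), 29.1-fold in IS (log2 4.86, SE 0.55, adjusted p = 0.000112) and 24.8-fold in IS-HA (log2 4.63, SE 0.55, adjusted p = 0.000244). The log2 fold change of IS-HA over Normal was 3.92 without IS-HA replicate 2 (edgeR adjusted p = 4.64e-05). Between the injuries edgeR did not call Mt2A with all rats: the log2 fold change was 1.11 for IS against IC (SE 0.40, unadjusted p = 0.0173, edgeR adjusted p = 0.172) and -0.23 for IS-HA against IS (SE 0.39, adjusted p = 0.872). IS against IC was called by voom of limma with quality weights (1.22, adjusted p = 0.0223) and by edgeR without IS-HA replicate 2 (1.11, adjusted p = 0.0229).

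Mt1 (ENSRNOG00000025764), which encodes the other inducible metallothionein and lies beside Mt2A on chromosome 19, followed the same order of groups. It stood at 76.7 and 53.2 TPM in Normal, at 357, 527 and 372 TPM in IC, at 1020, 1080 and 838 TPM in IS and at 422, 1080 and 505 TPM in IS-HA. Again no injured rat reached down to Normal and no IC rat reached up to IS. The log2 fold change over Normal was 2.62 in IC (SE 0.49, edgeR adjusted p = 0.00425), 3.91 in IS (SE 0.52, adjusted p = 0.000269) and 3.42 in IS-HA (SE 0.51, adjusted p = 0.000843), where it was 2.69 without IS-HA replicate 2 (edgeR adjusted p = 9.16e-05). It was 1.30 for IS against IC (SE 0.39, adjusted p = 0.155) and -0.49 for IS-HA against IS (SE 0.39, adjusted p = 0.683), and the latter was called by voom with quality weights (-1.2, adjusted p = 0.0428) and by edgeR without IS-HA replicate 2 (-1.23, adjusted p = 0.0362). IS against IC was called by DESeq2's Wald test (1.31, adjusted p = 0.032), by voom with quality weights (1.41, adjusted p = 0.0209) and by edgeR without IS-HA replicate 2 (1.30, adjusted p = 0.0208). Of the other genes named as metallothioneins, Mt1m was at 0 counts in every rat and Mt4 at 0 or 1, and Mt1a, an older name of Mt1 in RefSeq, had no entry of its own. The pseudogene Mt1-ps3 carried counts equal to 12.6 to 19.9% of those of Mt1, and how reads shared by such near-identical genes were assigned is not given in the sources used here, so the split between Mt1 and its copy is uncertain. With Mt2A, Mt1 and Mt1-ps3 summed to 1 gene, an alternative chosen after seeing the data, the log2 fold change over Normal was 3.43 in IC, 4.59 in IS and 4.29 in IS-HA, with edgeR adjusted p of 0.00113, 0.00014 and 0.000322.

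Mt3 (ENSRNOG00000018958), known as growth inhibitory factor, was the most abundant metallothionein in Normal striatum and was called in only 1 comparison by edgeR with all rats. It measured 760 and 574 TPM in Normal, 1350, 1290 and 1860 TPM in IC, 1780, 2610 and 1320 TPM in IS and 1430, 4920 and 1330 TPM in IS-HA. All 9 injured rats were above both Normal rats, the 3 injury groups overlapped one another, and IS-HA replicate 2 stood far above the rest. The means were 667 ± 131, 1500 ± 315, 1900 ± 655 and 2560 ± 2050 TPM (SD) in Normal, IC, IS and IS-HA. The log2 fold change over Normal was 1.12 in IC (SE 0.62, edgeR adjusted p = 0.224) and 1.51 in IS (SE 0.63, adjusted p = 0.0671). In IS-HA it was 2.04, a 4.12-fold increase (SE 0.65, adjusted p = 0.0347), and without IS-HA replicate 2 it was 0.90 with an adjusted p of 0.0644, and the call was also lost without Normal replicate 1 and without Normal replicate 3. Without that rat the comparison of IC with Normal was called, at an unchanged log2 fold change of 1.12 (edgeR adjusted p = 0.0203), as was that of IS with Normal at 1.51 (adjusted p = 0.00213). The latter was called in 9 of 24 alternatives in all, among them DESeq2's Wald test (1.5, adjusted p = 0.0345) and library size alone in edgeR (1.65, adjusted p = 0.0431). IS against IC gave 0.39 (SE 0.54, adjusted p = 0.654) and IS-HA against IS 0.53 (SE 0.54, adjusted p = 0.763), which became -0.61 without IS-HA replicate 2 (adjusted p = 0.197).

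The make-up of the metallothionein pool turned over between Normal and injured striatum. The summed level of Mt1, Mt2A and Mt3 was 725 to 980 TPM in Normal, 3110 to 3910 in IC, 4980 to 7870 in IS and 3720, 10600 and 4020 in IS-HA replicates 1, 2 and 3. Mt3 made up 77.5 and 79.2% of that sum in the Normal rats, 32.9 to 48.1% in IC, 26.5 to 33.2% in IS and 33.1 to 46.7% in IS-HA. The share of Mt2A was 13.5 and 14.6% in Normal, 42.2 to 53.6% in IC, 53.1 to 56.7% in IS and 43.1 to 54.3% in IS-HA. No injured rat overlapped Normal in either share, and the shares of IC, IS and IS-HA lay close together or overlapped. Mt2A was 1.84 to 1.87 times the level of Mt1 in Normal, 3.92 to 4.39 times in IC, 3.37 to 3.87 times in IS and 4.23 to 4.41 times in IS-HA, so these neighbours did not keep 1 ratio.

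**Figure D2:**
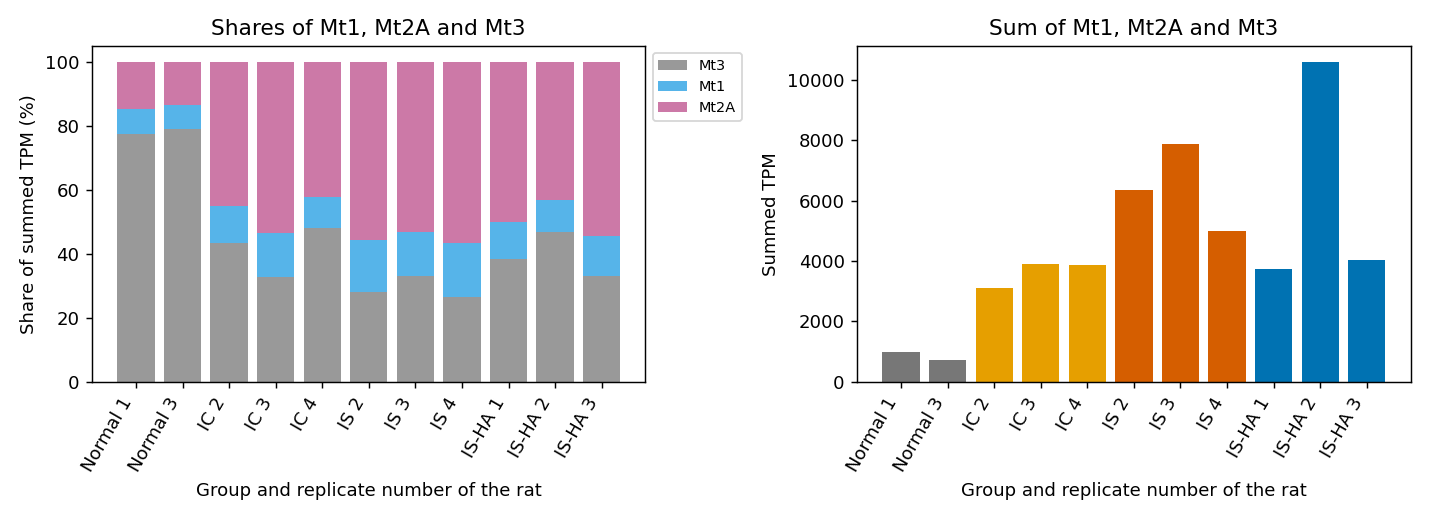
Left, share of Mt3, Mt1 and Mt2A in their summed TPM in each rat (percent, stacked to 100). Right, the summed TPM in each rat, on a linear axis from 0. Mt3 is over 77% of the sum in both Normal rats and under 50% in each injured rat, and the sum is highest in IS-HA replicate 2 (10600).

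The metallothioneins are among the shortest genes measured, and a trend with gene length ran through the libraries. Relative to the median gene, the length was 0.131 for Mt2A and Mt1 and 0.126 for Mt3, within the shortest 1.72% of genes, against 0.874 to 1.78 for the other 4 members. The slope of log2 CPM, as a deviation from the mean of all rats, per doubling of gene length was 0.147 and 0.264 in Normal, -0.018 to 0.062 in IC, -0.156 to -0.071 in IS, 0.058 and 0.051 in IS-HA replicates 1 and 3, and -0.263 in IS-HA replicate 2. Short genes thus stood lowest in Normal and highest in IS and in IS-HA replicate 2. With a smooth trend removed in each rat, an alternative chosen after seeing the data, Mt2A had a log2 fold change over Normal of 3.51 in IC, 4.31 in IS and 3.96 in IS-HA, with edgeR adjusted p of 5.51e-05, 1.41e-05 and 2.91e-05. Mt3 had 0.86, 0.96 and 1.28, with adjusted p of 0.153, 0.0715 and 0.0361. For IS against IC the value of Mt2A was 0.80 (edgeR adjusted p = 0.121), and Mt3 was not called either (adjusted p = 0.885).

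Mtf1 (ENSRNOG00000025724), the zinc sensor that drives metallothionein transcription, went the other way at the RNA level. It stood at 16.8 and 21.3 TPM in Normal, at 11.2, 12.5 and 9.88 TPM in IC, at 9.92, 7.92 and 6.84 TPM in IS and at 14.2, 5.19 and 13.5 TPM in IS-HA. Every injured rat was below both Normal rats, and within IS-HA replicate 2 was the lowest of all 11 rats while the other two were the highest of the injured. The means were 19.0 ± 3.23, 11.2 ± 1.31, 8.23 ± 1.56 and 11 ± 5.01 TPM (SD). Mtf1 fell by 1.20 on the log2 scale in IS (SE 0.27, edgeR adjusted p = 0.00479) and by 0.85 in IS-HA (SE 0.27, adjusted p = 0.0354), and was not called in IC (log2 fold change -0.82, SE 0.27, adjusted p = 0.0588). Mtf1 in IC was called in 6 of 24 alternatives. Among them were DESeq2's Wald test (-0.85, adjusted p = 0.0204) and voom with quality weights (-0.83, adjusted p = 0.00139). Without IS-HA replicate 2 it was called in all 3, at -0.82 in IC (edgeR adjusted p = 0.00246), -1.20 in IS (adjusted p = 0.000102) and -0.59 in IS-HA (adjusted p = 0.0207). The call in IS-HA was lost without Normal replicate 1, Normal replicate 3, IC replicate 2 or IC replicate 4, and with library size alone in place of TMM (edgeR adjusted p = 0.0991), with only IS-HA and Normal in the fit (adjusted p = 0.143) and with a replicate block (adjusted p = 0.115). With the length trend removed Mtf1 was called in all 3 as well, at -0.62, -0.80 and -0.60 (edgeR adjusted p of 0.0382, 0.00527 and 0.0311). IS against IC gave -0.38 (SE 0.25, adjusted p = 0.365), and IS-HA against IS gave 0.35 (SE 0.25, adjusted p = 0.659) with all rats and 0.61 (adjusted p = 0.0488) without IS-HA replicate 2. The direction of Mtf1 was thus opposite to that of Mt2A in each comparison with Normal, and these are levels of the factor's RNA, not of its protein or activity.

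Slc30a1 (ENSRNOG00000004749), which encodes the plasma membrane zinc exporter ZnT1, was called by edgeR in none of the 5 comparisons with all rats. Its level was 25.5 and 31.5 TPM in Normal, 27.9, 29.6 and 20.1 TPM in IC, 22.6, 17.1 and 16.2 TPM in IS and 28.9, 9.19 and 29.2 TPM in IS-HA. IC replicates 2 and 3 and IS-HA replicates 1 and 3 lay within the Normal range of TPM, while IC replicate 4, the 3 IS rats and IS-HA replicate 2 lay below it. In CPM, the scale of the test, the IS-HA rats were at 31.5, 12.9 and 31.6, all below the Normal rats at 31.9 and 35.9. The log2 fold change over Normal was -0.20 in IC (SE 0.32, edgeR adjusted p = 0.684), -0.60 in IS (SE 0.32, adjusted p = 0.137) and -0.41 in IS-HA (SE 0.32, adjusted p = 0.332). Without IS-HA replicate 2 the value in IS-HA was -0.10 (edgeR adjusted p = 0.69). The value in IS was -0.60 again without IS-HA replicate 2 and was then called (edgeR adjusted p = 0.00836). Voom with quality weights called it with all rats (-0.61, adjusted p = 0.0144). With only IS and Normal in the fit edgeR called it too (-0.60, adjusted p = 0.027). The log2 fold change was -0.40 for IS against IC (SE 0.29, edgeR adjusted p = 0.405) and 0.19 for IS-HA against IS (SE 0.29, adjusted p = 0.856). Slc30a1, with 2 cores in the window printed above, was not higher in any injury group mean, while Mt2A was 13.5- to 29.1-fold higher. The cause of this difference was not tested.

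Slc39a8 (ENSRNOG00000012508), which encodes the zinc and manganese importer ZIP8, was the only other member that rose in all 3 injuries. It measured 3.90 and 2.73 TPM in Normal, 11.1, 15.3 and 12.7 TPM in IC, 19.8, 19.2 and 34.9 TPM in IS and 10.7, 11.7 and 13.7 TPM in IS-HA. No injured rat overlapped Normal, all IS rats were above all IC rats and all IS-HA rats, and IC and IS-HA overlapped. The means were 3.31 ± 0.826, 13.0 ± 2.13, 24.6 ± 8.89 and 12.0 ± 1.51 TPM (SD). The fitted increase over Normal was 3.75-fold in IC (log2 1.91, SE 0.36, edgeR adjusted p = 0.00461), 7.53-fold in IS (log2 2.91, SE 0.37, adjusted p = 0.000226) and 3.58-fold in IS-HA (log2 1.84, SE 0.36, adjusted p = 0.00405). IS was higher than IC by 1.01 on the log2 scale (SE 0.30, unadjusted p = 0.0059, adjusted p = 0.151), and IS-HA stood at -1.08 against IS (SE 0.30, unadjusted p = 0.00418, edgeR adjusted p = 0.499), neither of which edgeR called with all rats. IS against IC was called by DESeq2's Wald test (1.03, adjusted p = 0.0332) and by voom with quality weights (0.77, adjusted p = 0.0431). Without IS-HA replicate 2 edgeR called it as well (1.00, adjusted p = 0.0436). Without Normal replicate 3 the calls in IC and IS-HA against Normal were lost. Its length is 1.03 times that of the median gene, and with the length trend removed the 3 values over Normal were 1.9, 2.95 and 1.83. In IS-HA replicates 1, 2 and 3 its CPM, the scale of the test, was 13.7, 19.4 and 17.4.

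Slc39a14 (ENSRNOG00000009832), which encodes the zinc, iron and manganese importer ZIP14, showed no call and no separation of groups. It was 10.8 and 13.6 TPM in Normal, 12.1, 15.4 and 11.6 TPM in IC, 15.5, 11.6 and 16.0 TPM in IS and 12.5, 8.31 and 15.3 TPM in IS-HA. All 4 groups overlapped. The log2 fold change was 0.04 in IC against Normal (SE 0.22, edgeR adjusted p = 0.912), 0.26 in IS (SE 0.22, adjusted p = 0.342), -0.05 in IS-HA (SE 0.22, adjusted p = 0.874), 0.22 for IS against IC (SE 0.19, adjusted p = 0.494) and -0.31 for IS-HA against IS (SE 0.20, adjusted p = 0.62). Without IS-HA replicate 2 the value of IS-HA against Normal was 0.06 (edgeR adjusted p = 0.85). With the length trend removed the value of IS against Normal was 0.61 and was called (edgeR adjusted p = 0.0268), for a gene 1.64 times as long as the median.

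Set against all genes, the counts of members read as follows. In IC against Normal 2 of the 6 members were called, Mt2A and Slc39a8, both higher, where 17.6% of all genes tested were called, 13.0% higher and 4.64% lower. In IS against Normal 3 were called, those 2 higher and Mtf1 lower, where 49.0% of all genes were called, 24.8% higher and 24.2% lower. In IS-HA against Normal 4 were called, Mt2A, Mt3 and Slc39a8 higher and Mtf1 lower, where 31.5% of all genes were called, 19.5% higher and 12.1% lower. The median log2 fold change of the 6 was 0.58, 0.89 and 0.90, beside 0, 0.02 and 0.06 over all genes. The 2, 3 and 4 of 6 members called stand beside these background shares, and in IS the share of members is near that of all genes. The counts without IS-HA replicate 2 were 4, 5 and 3 of 6, beside 33.3%, 59.5% and 28.2% of all genes, and with the length trend removed they were 3, 4 and 4, beside 19.3%, 48.0% and 31.4%. Library size alone, in place of TMM, moved the median of all genes against Normal to 0.14 to 0.18 and left the directions of the called members as they were. These 3 comparisons share the 2 Normal rats. By overlap of scaled counts (CPM), in IC all rats were above Normal for 3 members (32.4% of all genes) and below for 1 (31.3%). In IS they were above for 3 (37.6%) and below for 2 (36.9%), and in IS-HA above for 3 (31.7%) and below for 2 (29.2%), shares that separation from only 2 Normal rats makes common.

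Between the injuries edgeR called no member with all rats. In IS against IC 0 of 6 were called by edgeR, where 0% of all genes were called, and at an unadjusted p under 0.05 Mt2A and Slc39a8 were higher, 2 of 6 members beside 10.5% of all genes higher. In the same comparison DESeq2's Wald test called 1 member, Slc39a8 (log2 fold change 1.03, adjusted p = 0.0332), beside 6.59% of all genes, and voom of limma, run with quality weights, called Mt2A and Slc39a8 beside 12.0% of all genes. Without IS-HA replicate 2, which is in neither group but enters the shared spread and the filter (15897 genes then tested), edgeR called Mt2A (1.11, adjusted p = 0.0229) and Slc39a8 (1.00, adjusted p = 0.0436), beside 14.1% of all genes. In IS-HA against IS 0 of 6 were called by edgeR and 0 by DESeq2's Wald test, beside 0.00635% and 0.393% of all genes, and at an unadjusted p under 0.05 only Slc39a8 was lower, beside 3.36% of all genes lower. Without IS-HA replicate 2 only Mtf1 was called, beside 4.37% of all genes, while Mt2A stood at -0.95 (edgeR adjusted p = 0.0543), Slc30a1 at 0.49 (adjusted p = 0.0796), Slc39a8 at -1.18 (adjusted p = 0.0596) and Slc39a14 at -0.20 (adjusted p = 0.489). By overlap of scaled counts, all IS rats were above all IC rats for 2 members, Mt2A and Slc39a8 (19.2% of all genes), and below for 1, Mtf1 (18.7%). All IS-HA rats were above all IS rats for 0 members (4.96%) and below for 1, Slc39a8 (5.42%).

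**Figure D3:**
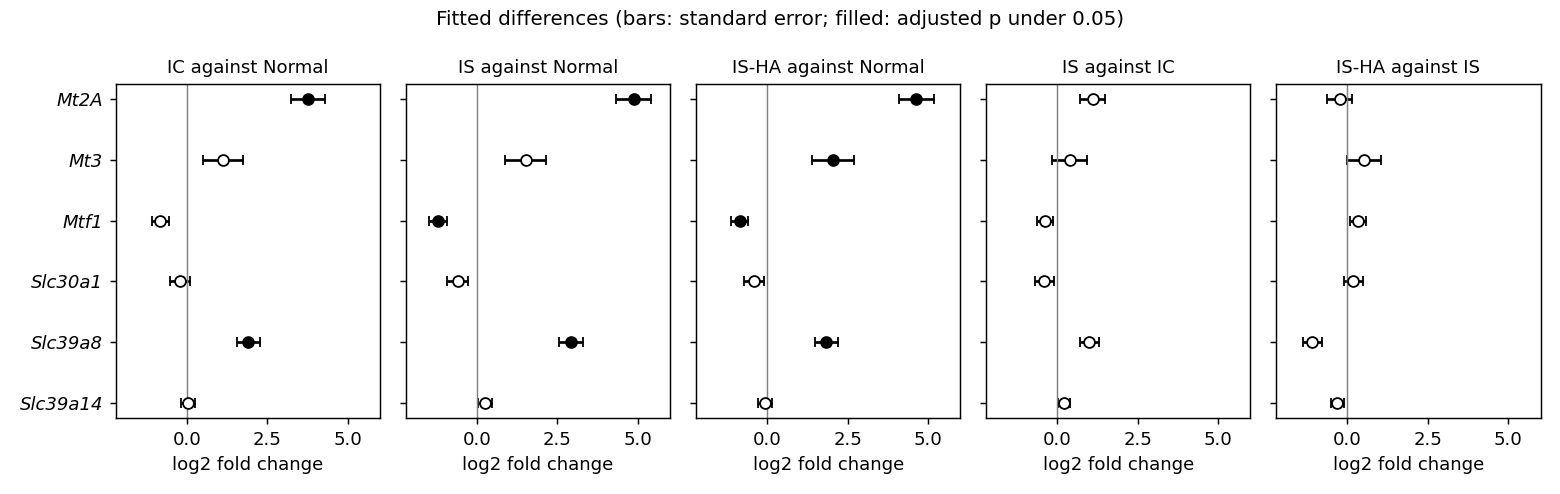
Log2 fold change (horizontal axis) of the 6 genes in the 5 comparisons from edgeR, with the standard error as bars and filled points for an adjusted p under 0.05. Against Normal, Mt2A is at 3.76 to 4.86, Slc39a8 is at 1.84 to 2.91 and Mtf1 is below 0. No point is filled in IS against IC or IS-HA against IS.

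**Figure D4:**
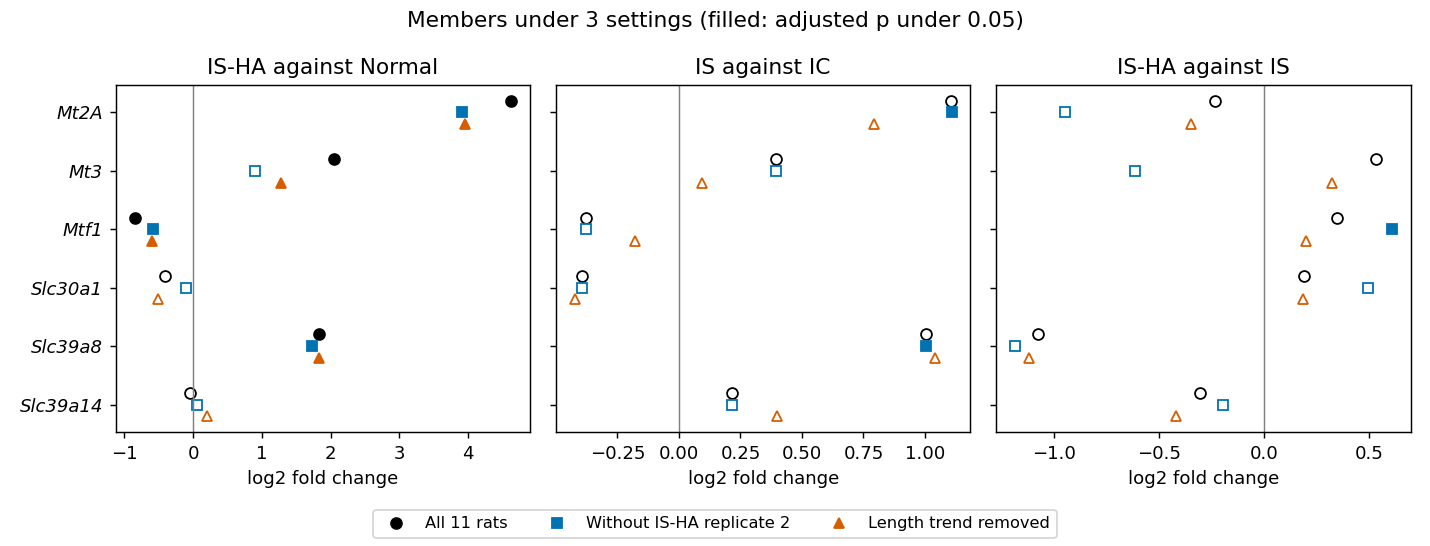
Log2 fold change (horizontal axis, scaled separately in each panel) of the 6 genes with all 11 rats (circles), without IS-HA replicate 2 (squares) and with the gene length trend removed (triangles), filled for an adjusted p under 0.05. In IS-HA against IS, leaving out the rat moves Mt2A from -0.23 to -0.95 and Mt3 from 0.53 to -0.61, while Slc39a8 stays between -1.08 and -1.18.

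The remaining zinc transporters were read by family. Of 9 other exporters of the SLC30 family 7 could be tested, and none rose in any comparison. In IC against Normal 0 of the 7 were called by edgeR, beside 17.6% of all genes (4.64% lower), with 1 lower at an unadjusted p under 0.05. Without IS-HA replicate 2 edgeR called Slc30a10 lower there (-1.47, adjusted p = 0.0119). In IS against Normal 3 of 7 fell, beside 24.2% of all genes: Slc30a10, a manganese exporter by its best known role, by 2.52 on the log2 scale (SE 0.62, edgeR adjusted p = 0.0073), Slc30a4 by 0.88 (SE 0.29, adjusted p = 0.0276) and Slc30a9 by 0.51 (SE 0.18, adjusted p = 0.0344). In IS-HA against Normal Slc30a10 alone fell, 1 of 7 beside 12.1% of all genes, by 1.80 (SE 0.60, edgeR adjusted p = 0.0428). Its level was 20.8 ± 6.75 TPM (SD) in Normal, 7.79 ± 2.64 in IC, 3.54 ± 1.67 in IS and 6.24 ± 5.04 in IS-HA. Slc30a3, which loads zinc into synaptic vesicles, was called by edgeR in none of the comparisons and varied widely, at 24.5 ± 31.0 TPM (SD) in IS. In IS against IC edgeR called 0 of the 7, with Slc30a3 higher at an unadjusted p under 0.05, beside 10.5% of all genes higher. In IS-HA against IS it called 0, with 0 at that unadjusted level, where 3.36% of all genes were lower.

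Of 12 other importers of the SLC39 family 11 could be tested, and more of them rose than fell. In IC against Normal 4 rose and 0 fell, beside 13.0% and 4.64% of all genes. In IS 5 rose and 1 fell, beside 24.8% and 24.2%, and in IS-HA 5 rose and 1 fell, beside 19.5% and 12.1%. Slc39a1, which encodes the widely expressed plasma membrane importer ZIP1, rose from 53.7 ± 1.83 TPM (SD) in Normal to 194 ± 29.1 in IC, 252 ± 13.2 in IS and 206 ± 16.5 in IS-HA, with log2 fold changes of 1.79 (SE 0.18, edgeR adjusted p = 0.000147), 2.24 (SE 0.18, adjusted p = 3.13e-05) and 1.93 (SE 0.18, adjusted p = 8.25e-05). Slc39a4, the intestinal importer mutated in acrodermatitis enteropathica, rose in the 3 injuries by 2.45, 3.20 and 2.47 (edgeR adjusted p of 0.00598, 0.000579 and 0.00429) from the low level of 0.387 ± 0.132 TPM in Normal. Slc39a6 (0.80, 0.79 and 0.89) and Slc39a11 (0.76, 0.99 and 0.93) rose in all 3 as well, Slc39a5 rose in IS (2.33, edgeR adjusted p = 0.0224), and Slc39a2 rose in IS-HA (2.70, adjusted p = 0.0384) and was at 2.09 in IS (adjusted p = 0.0801), with no edgeR call for either between the injuries with all rats. These values rest on few reads, 1 to 3 counts of Slc39a2 in Normal and 4 to 14 in IS-HA, and 4 to 7 counts of Slc39a5 in Normal and 14 to 21 in IS. Slc39a10 fell by 1.49 in IS (SE 0.36, edgeR adjusted p = 0.00646) and by 1.18 in IS-HA (SE 0.36, adjusted p = 0.0298). Slc39a1, at 53.7 to 252 TPM on average, was more abundant than both importer members in each group. Between the injuries edgeR called 0 of the 11, with 2 higher at an unadjusted p under 0.05 in IS against IC (10.5% of all genes higher) and 0 in IS-HA against IS. Once IS-HA replicate 2 was left out it called Slc39a1 (0.45, adjusted p = 0.0471) and Slc39a5 (2.25, adjusted p = 0.0455) higher in IS than in IC, and Slc39a10 lower in IC than in Normal (-0.97, adjusted p = 0.00538). Slc39a7 and Slc30a8 are listed at 0 in each rat and were not tested.

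**Figure D5:**
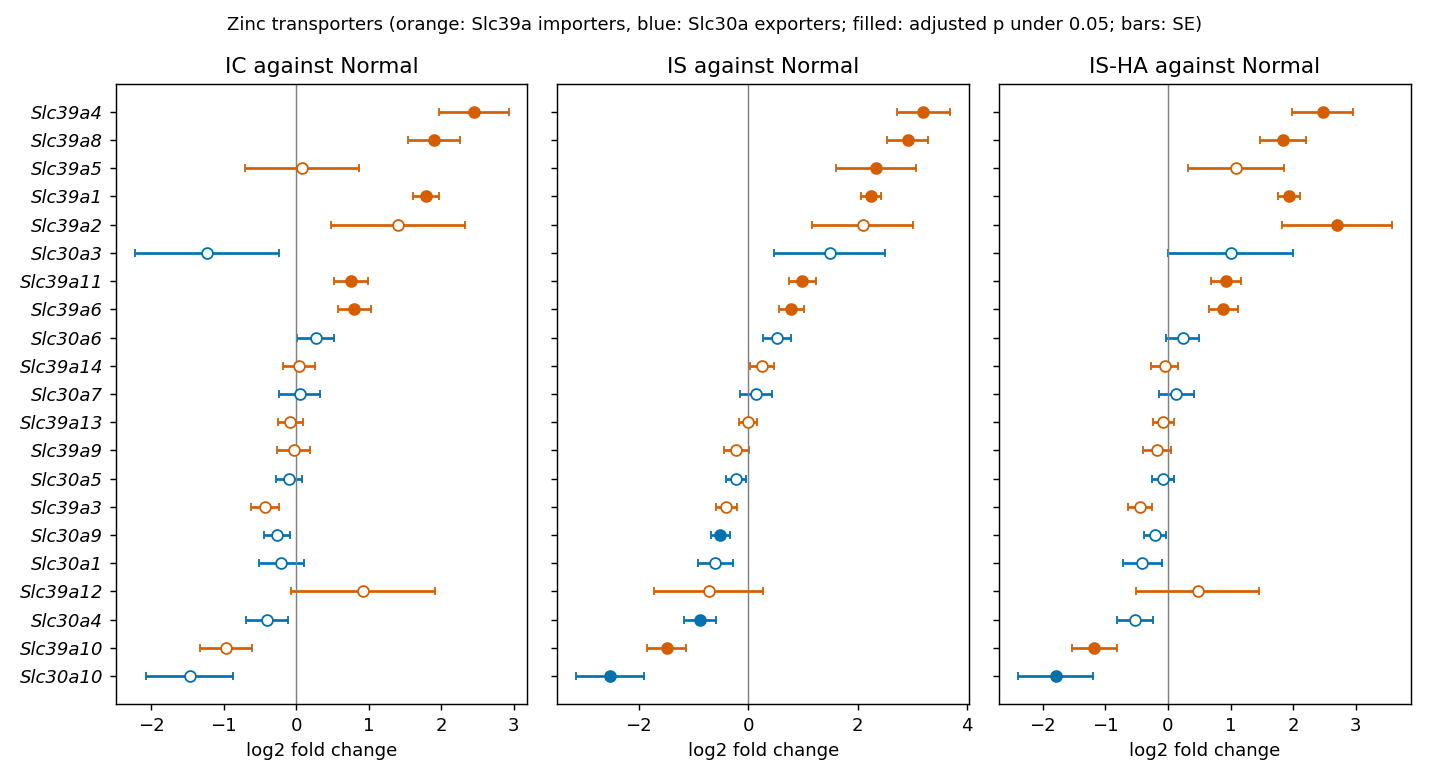
Log2 fold change against Normal (horizontal axis, scaled separately in each panel) of the tested zinc transporters in IC, IS and IS-HA, members included, with importers of the SLC39 family in orange, exporters of the SLC30 family in blue, standard errors as bars and filled points for an adjusted p under 0.05. Slc39a4, Slc39a8 and Slc39a1 stand high and filled in each panel, Slc30a10 stands lowest in each and is filled in IS and IS-HA, and no exporter is filled above 0.

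Of 6 further genes of zinc handling 4 could be tested. S100a8 and S100a9, the subunits of calprotectin, a zinc- and manganese-binding protein of neutrophils, rose in all 3 injuries, S100a9 by 5.67, 7.74 and 6.99 on the log2 scale (edgeR adjusted p of 0.00292, 0.000274 and 0.000744), and both stand among the neutrophil markers above. The increase of S100a9 in IS-HA was 5.84 without IS-HA replicate 2 (edgeR adjusted p = 0.000169). Tmem163, a zinc transporter of synaptic and other vesicles, fell by 1.40 in IC (SE 0.33, edgeR adjusted p = 0.0151) and by 2.00 in IS (SE 0.34, adjusted p = 0.000998). In IS-HA Tmem163 was not called (-0.36, SE 0.33, adjusted p = 0.407), and its level was 21.7 ± 4.46 TPM (SD) in Normal, 8.58 ± 2.25 in IC, 5.30 ± 1.79 in IS and 17.4 ± 7.52 in IS-HA. For IS-HA against IS it was 1.64 higher on the log2 scale with all IS-HA rats above all IS rats (SE 0.32, unadjusted p = 0.000307, edgeR adjusted p = 0.302) and was not called. That comparison was called without IS-HA replicate 2 for Tmem163 (1.86, adjusted p = 0.0342) and for S100a9 (-1.9, adjusted p = 0.0399), and S100a8 and S100a9 were called higher in IS than in IC (1.92 and 2.07, adjusted p of 0.0251 and 0.0212).

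Across the 11 rats, the genes whose log2 CPM ran closest to each member were found among 13796 expressed genes. These Pearson correlations are descriptions over rats that share group, library depth and the length trend. For Mt2A they were Tspo (r = 0.994), C1qb (r = 0.994) and C1qc (r = 0.994), the first a mitochondrial protein used as a marker of glial activation and the others subunits of complement C1q, and over the 9 injured rats alone r was 0.948, 0.954 and 0.951. For Mt3 they included Gstk1 (r = 0.988) and Mrpl49 (r = 0.982), and they were for Mtf1 Bace1 (r = 0.986), Rusc2 (r = 0.984) and Tsnax (r = 0.984), and for Slc30a1 Zfyve16 (r = 0.994), Tcf12 (r = 0.993) and Creb1 (r = 0.992). For Slc39a8 they were Slc10a3 (r = 0.995), Arap1 (r = 0.989) and Adam17 (r = 0.989), and for Slc39a14 they included Pcbp1 (r = 0.913) and Plxna1 (r = 0.913). No member was among the closest 3 of another. Between members r over the 11 rats was 0.812 for Mt2A with Mt3, -0.910 for Mt2A with Mtf1, -0.915 for Mt3 with Slc30a1, 0.869 for Mtf1 with Slc30a1 and 0.901 for Mt2A with Slc39a8. Over the 9 injured rats the last was 0.535, while the others were 0.789, -0.844, -0.929 and 0.946.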

How the data were processed

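The authors aligned poly(A) RNA-seq reads to mRatBN7.2, and per the submitters' processing notes the tools were fastp 0.20.0, HISAT2 2.1.0, SAMtools 1.9 and featureCounts of Subread. The annotation version and the strand setting are not given in the sources used here. The deposited values are raw counts of reads for each gene and TPM, for which the authors divided counts by gene length and scaled each rat to 1 sum. Each column was matched to 1 rat by its label, and 0 columns were left unmatched. Totals were 6701301 to 18817645 counts.

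Counts were filtered with filterByExpr, scaled by TMM and tested with edgeR 4.0.16 in R 4.3.3 (glmQLFit, glmQLFTest) in one fit of the 4 groups over 11 rats, with Benjamini-Hochberg adjustment over 15742 genes. The study's methods name DESeq2, which was used here as an alternative (DESeq2 1.42.0), as was limma 3.58.1. SE is the absolute log2 fold change over the square root of F. TPM means are given with SD. The alternatives were other scalings, tests, filters, pseudocounts on TPM, leaving out rats or groups, a replicate block, a fold cutoff and, chosen after seeing the data, summed metallothioneins and removal of a smooth gene length trend per rat. Same-numbered rats of different groups are different animals, and their deviations from group means correlated at 0.034 on average for IS and IC and at -0.282 for IS-HA and IS, so the numbers were not taken as pairs.

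Named are the 6 members, up to 4 genes per list, direction and comparison with the largest called change, the 3 genes closest to each member by Pearson correlation among genes with mean log2 CPM above 1 (prior count 2), and any list of 5 or fewer. For Mt3 and Slc39a14, 1 of the 3 closest genes is not reported here. Lists were other metallothioneins, zinc exporters, zinc importers, zinc handling, copper handling, interleukin 6 and STAT3 genes, glucocorticoid responsive genes and cell type markers. The members and lists were chosen with earlier results of these data known. Promoters came from RefSeq on GRCr8 and matched 6 of 7 symbols. Plots used matplotlib 3.10.9.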

Additional observations from a re-analysis of the deposited data

How the results depend on the processing

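Called members numbered 2 in IC, 3 in IS and 4 in IS-HA against Normal, and 0 in IS against IC and in IS-HA against IS. With voom and quality weights they were 4 in IC and 5 in IS against Normal and 2 in IS against IC, beside 39.5%, 61.0% and 12.0% of all genes. With only the groups compared in the fit they were 4, 5 and 2 in IC, IS and IS-HA against Normal, beside 35.6%, 53.5% and 15.4%, and DESeq2's Wald test gave 1 in IS against IC, beside 6.59%. With the replicate number as a block, though the numbers mark different rats, they were 1 in IC and 2 in IS-HA against Normal, beside 5.33% and 15.3%, and the other 3 counts did not change by over 1.5 times. With the gene length trend removed they were 3 in IC and 4 in IS against Normal, beside 19.3% and 48.0%. Leaving out 1 rat at a time gave 1 to 4 in IC, 3 to 5 in IS and 1 to 4 in IS-HA against Normal, 0 to 2 in IS against IC and 0 to 1 in IS-HA against IS, where 5.17 to 33.3%, 24.6 to 59.5%, 9.80 to 33.5%, 0 to 14.1% and 0 to 4.37% of all genes were called; the lowest counts in IC and IS-HA came without Normal replicate 3 (1 and 1), that in IS-HA was 2 without Normal replicate 1, and the highest in the comparisons of IC with Normal, IS with IC and IS-HA with IS came without IS-HA replicate 2. Over 725 member values under the alternatives, 665 kept direction and side of the threshold, 19 lost a call, 28 gained one, 13 changed sign without being called and 0 reversed. Mt2A was called against Normal in all 25 alternatives of each comparison, at log2 3.43 to 4.14 in IC, 4.31 to 5.24 in IS and 3.92 to 5.01 in IS-HA. Mt1 lost its call in IC under the block (adjusted p = 0.077). Slc39a8 lost its call in IC under the block and without Normal replicate 3 (edgeR adjusted p up to 0.0803) and in IS-HA without Normal replicate 3 (adjusted p = 0.0611). In IS-HA against Normal, Mt3 was called in 19 of 24 alternatives and Mtf1 lost its call in 10 of 24, among them limma on TPM and the fold cutoff, and in IS Mtf1 lost it under the block only (adjusted p = 0.112). The cause of these differences was not tested beyond the fewer rats that some fits use. The 2 Normal rats and the smallest library limit what can be called.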

Other observations

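Copper is the other metal that metallothioneins bind. Of 15 listed genes of copper handling 13 were tested by edgeR, and 5, 8 and 7 rose in IC, IS and IS-HA against Normal, beside 13.0%, 24.8% and 19.5% of all genes. The other 8, 5 and 6 were not called, and 0 fell, with 1 lower in IS at an unadjusted p under 0.05. Cp, which encodes the ferroxidase ceruloplasmin, rose by 2.91, 3.09 and 2.93 on the log2 scale (SE 0.34 in each, edgeR adjusted p of 0.000307, 9.85e-05 and 0.000219). The copper importer gene Slc31a1 rose by 1.02, 1.64 and 1.24 (edgeR adjusted p of 0.0188, 0.000663 and 0.00497), and its relative Slc31a2 by 1.38, 2.53 and 1.88. Steap4, a metalloreductase gene, rose by 1.82, 2.14 and 2.24, and Steap1 by 4.59 in IS and 2.96 in IS-HA, from 0 and 4 counts in the Normal rats. In IS against IC and in IS-HA against IS edgeR called 0 of the 13. At an unadjusted p under 0.05, 3 were higher in the first, beside 10.5% of all genes. In the second 1 was higher and 1 was lower, the latter beside 3.36% of all genes lower. In the fit that left out IS-HA replicate 2, the copper exporter gene Atp7a was called lower in IS than in Normal (-1.56, edgeR adjusted p = 0.008) and higher in IS-HA than in IS (1.96, adjusted p = 0.0391), and Slc31a2 higher in IS than in IC (1.15, adjusted p = 0.0266). Against Normal that fit called Atox1 higher in IS (1.43, adjusted p = 0.00227). In IC it called Ccs (0.73, adjusted p = 0.0443) and Steap1 (2.86, adjusted p = 0.0448) higher. The call of Ccs in IS-HA against Normal (1.13, adjusted p = 0.0308 with all rats) was lost (0.75, adjusted p = 0.0601).

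Inflammatory and glucocorticoid pathways, both textbook inducers of metallothionein genes, were read from a list each. Whether either pathway induced the metallothioneins here was not tested. Of 12 tested genes of the interleukin 6 and STAT3 list 10 rose in each injury against Normal, beside 13.0%, 24.8% and 19.5% of all genes in IC, IS and IS-HA, and Lifr fell in IC (by 1.85) and IS (by 2.97). Lcn2, which encodes the acute-phase protein lipocalin 2, rose by 7.37, 7.42 and 7.57 (edgeR adjusted p of 4.48e-05, 3.13e-05 and 5.55e-05) and Timp1, an inhibitor of metalloproteinases, by 6.0, 6.83 and 6.48 (adjusted p of 0.000126, 3.57e-05 and 7.96e-05). Serpina3n and Il6 were called higher in each injury as well and rest on few reads in Normal: Serpina3n had 0 to 2 counts there and 130 to 2009 in the injured rats, and Il6 had 0 counts in both Normal rats, 6 to 14 in IC, 11 to 16 in IS and 4 to 10 in IS-HA. Between the injuries edgeR called 0 of the 12. At an unadjusted p under 0.05, 7 were higher in IS than IC, beside 10.5% of all genes. At that level 1 was higher and 4 were lower in IS-HA than IS, the latter beside 3.36% of all genes lower. Without IS-HA replicate 2, Il6r, Stat3, Socs3 and Timp1 were called higher in IS than in IC (0.86, 0.50, 1.35 and 0.82, edgeR adjusted p of 0.0294, 0.0435, 0.0256 and 0.044) and Lifr higher in IS-HA than in IS (2.05, adjusted p = 0.0376). Of 6 tested glucocorticoid responsive genes 0 rose in IC by edgeR (1 was higher at an unadjusted p under 0.05) and 1 in each of IS and IS-HA. The shares of all genes called higher were 13.0%, 24.8% and 19.5% in IC, IS and IS-HA. Sgk1 rose by 1.17 in IS and 1.12 in IS-HA (edgeR adjusted p of 0.00438 and 0.00925). Tsc22d3, which encodes GILZ, fell in IC by 0.63 and in IS-HA by 0.46, Per1 fell in IS and IS-HA by 1.38 and 1.30, and the receptor gene Nr3c1 fell in IS by 0.94. These 1, 2 and 2 of 6 that fell in IC, IS and IS-HA stand beside 4.64%, 24.2% and 12.1% of all genes. In the fit without IS-HA replicate 2 they were 2, 2 and 1 of 6, where 33.3%, 59.5% and 28.2% of all genes were called in either direction. Per1 was then called lower in IC (-0.89, edgeR adjusted p = 0.0017) and Tsc22d3 lost its call in IS-HA (-0.44, adjusted p = 0.0526). Between the injuries edgeR called 0 of the 6, with 3 higher in IS than IC (10.5% of all genes higher) and 0 in IS-HA against IS at an unadjusted p under 0.05. Fkbp5 was, without IS-HA replicate 2, called higher (0.53) and Nr3c1 and Per1 lower (-0.59 and -0.48) in IS than in IC, with edgeR adjusted p of 0.0476, 0.0448 and 0.0425.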
